A study of Mus musculus with 13 samples.

Results

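Basement membrane genes of the mouse lung were followed here as a set of 32 genes, selected by symbol. They comprised the 6 collagen IV chains, collagens XV and XVIII, 10 laminin chains, the nidogens, the heparan sulfate proteoglycans perlecan and agrin, 9 associated proteins and dystroglycan. Each of the 32 symbols was found in the deposited table of 43346 entries. RNA had been sequenced from lung fibroblasts in 13 libraries: 5 at day 30 and 3 at day 14 after bleomycin, 3 at day 14 after pneumonectomy, and 2 sham. Bleomycin injures the lung and gives a model of fibrosis, whereas surgical removal of a lung (pneumonectomy) makes the other lung grow. The study set these responses side by side to look for regulators that act against fibrosis.

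The labels give lung of Col1a1-GFP mice aged 8 weeks for the 10 bleomycin and sham libraries, so the sham mice carried the reporter too. In such mice a type I collagen promoter drives a green fluorescent protein, which marks cells that make this collagen rather than fibroblasts alone. For the 3 pneumonectomy libraries the labels give primary sorted fibroblasts with no strain or age, whereas the design text names fibroblasts of the GFP reporter for every group. Neither a bleomycin dose and route, nor a sort gate, nor the day of the sham libraries is stated. The second line of the deposited table calls all 4 groups young. For the bleomycin and sham libraries alone the labels state 12 PCR cycles, oligo(dT) beads and a minimum RNA quality number of 6, and for the pneumonectomy libraries alone they name an extraction kit. Whether preparation differed is not stated, and any such difference and pneumonectomy itself cannot be told apart. Nothing states that libraries of a group came from separate animals, so the p-values measure the spread between these libraries, which may be technical.

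Basement membranes are thin sheets of extracellular matrix under epithelia and endothelia and around muscle, fat and Schwann cells. A laminin network, held to the cell by integrins and dystroglycan, and a collagen IV network, cross-linked by peroxidasin, are joined by nidogens and perlecan. In the alveolar wall the basement membranes of the epithelium and of the capillaries are largely fused, and fibroblasts contribute several of the components. Collagen IV molecules are trimers of 3 kinds: chains 1 and 2 in nearly every basement membrane, chains 3, 4 and 5 in the alveolus and the kidney glomerulus, and chains 5 and 6 around smooth muscle and some epithelia. Laminins are trimers of an alpha, a beta and a gamma chain, and the alpha chain sets which receptors bind.

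The collagen IV genes lie head to head in pairs, so that the members of a pair start from a common stretch of DNA. The promoter windows of 4 of them are shown because the 2 pairs behaved differently in the values below. Each window runs from 250 bases before the start site to 50 after it, as RefSeq gives it on build GRCm38.p6. The windows are those of Col4a1 (chr8:11312777-11313076, minus strand), Col4a2 (chr8:11312555-11312854, plus strand), Col4a5 (chrX:141475169-141475468, plus strand) and Col4a6 (chrX:141474027-141474326, minus strand). Capitals mark GGGCGG (a GC box) and CCAAT on either strand, and no marked motif overlaps another.
Col4a1: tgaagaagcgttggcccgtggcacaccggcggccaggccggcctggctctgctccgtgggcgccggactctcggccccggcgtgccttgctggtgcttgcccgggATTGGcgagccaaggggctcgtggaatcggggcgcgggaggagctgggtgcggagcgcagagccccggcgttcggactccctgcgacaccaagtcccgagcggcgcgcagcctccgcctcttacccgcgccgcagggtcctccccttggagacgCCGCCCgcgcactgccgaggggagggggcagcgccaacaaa
Col4a2: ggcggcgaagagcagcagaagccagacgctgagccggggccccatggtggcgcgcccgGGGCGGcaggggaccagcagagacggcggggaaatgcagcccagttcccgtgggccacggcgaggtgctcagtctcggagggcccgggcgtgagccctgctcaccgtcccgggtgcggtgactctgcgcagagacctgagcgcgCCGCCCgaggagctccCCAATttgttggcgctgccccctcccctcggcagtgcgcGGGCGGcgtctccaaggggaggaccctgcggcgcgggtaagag
Col4a5: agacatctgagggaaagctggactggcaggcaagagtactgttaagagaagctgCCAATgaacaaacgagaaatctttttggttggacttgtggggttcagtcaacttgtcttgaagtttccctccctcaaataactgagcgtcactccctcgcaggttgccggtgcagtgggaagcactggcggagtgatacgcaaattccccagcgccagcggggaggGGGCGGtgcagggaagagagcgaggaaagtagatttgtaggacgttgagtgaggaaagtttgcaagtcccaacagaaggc
Col4a6: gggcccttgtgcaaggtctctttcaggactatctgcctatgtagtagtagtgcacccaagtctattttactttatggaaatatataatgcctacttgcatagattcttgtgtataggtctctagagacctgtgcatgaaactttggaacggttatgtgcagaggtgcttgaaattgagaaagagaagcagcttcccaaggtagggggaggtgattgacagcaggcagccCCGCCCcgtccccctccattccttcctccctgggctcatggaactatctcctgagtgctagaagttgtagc
The transcripts of Col4a1 and Col4a2 start on opposite strands and overlap by 22 bases in RefSeq, and their windows share 78 bases. The GC box of the Col4a1 window and the last one of the Col4a2 window are the same bases read from opposite strands. Between the start sites of Col4a5 and Col4a6 lie 1342 bases, and their windows share 0 bases. GGGCGG matched 1 time in the Col4a1 window, 3 times in that of Col4a2 and 1 time each in those of Col4a5 and Col4a6. CCAAT matched 1 time each in Col4a1, Col4a2 and Col4a5 and 0 times in Col4a6, and TATAAA matched 0 times in all 4. Of all 32851 RefSeq promoter windows, 35.7% held GGGCGG, 37.4% CCAAT and 13.6% TATAAA. Of the 32 genes, 22 had such an entry.

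Some libraries stood apart in ways that touch the values below. The reads behind the RPKM values were estimated at 133 to 200.4 M reads per library at day 30 after bleomycin, 79.9 to 99.9 M at day 14 after bleomycin, 69.0 to 75.5 M after pneumonectomy and 67.6 to 72.0 M in sham. RPKM are read counts scaled to gene length and library size, so levels of different genes can be set side by side. The summed RPKM of 8 fibroblast markers was 3363 to 3799 at day 30, 2739.7 to 3423 at day 14 after bleomycin, 2831 to 4511 after pneumonectomy and 2998 to 4141 in sham. At day 14 after bleomycin these markers moved in opposite directions. Col1a1 was 1196 to 1633 RPKM against 437 and 670.0 in sham, and Dcn 117 to 169 RPKM against 1382 and 1856. Col1a2 was also above both sham libraries, Pdgfra, Lum, Mfap5 and Tcf21 were also below them, and Col3a1 overlapped with sham. The sum of 18 endothelial markers was 29.6 to 34.3 RPKM at day 30, 442, 821 and 775 RPKM in the 3 day 14 bleomycin libraries, 34.4 to 73.7 RPKM after pneumonectomy and 39.7 to 43.2 RPKM in sham. Cdh5, the cadherin that defines endothelium, had 0.250 to 0.691 RPKM at day 30, 64.8, 123 and 114 RPKM at day 14 after bleomycin, 2.10 to 6.62 RPKM after pneumonectomy and 1.39 and 0.607 RPKM in sham. The sum of 16 epithelial markers was 1429.9 RPKM in day 30 replicate 3 and 9.19 to 19.9 in the other 4, 5.43 to 23.2 at day 14 after bleomycin, 52.9 to 517 after pneumonectomy and 11.8 to 17.6 in sham. The sum of 12 smooth muscle and pericyte markers was 171 to 216 RPKM at day 30, 125 to 169 at day 14 after bleomycin, 359 to 509.5 after pneumonectomy and 371 and 201 in the 2 sham libraries. Xist was 19.9 to 29.2 RPKM in the day 30 libraries, 0.0102 to 0.0126 at day 14 after bleomycin, 0.00448 to 0.0222 after pneumonectomy, and 15.9 and 0.0147 in sham, where sham 1 also had 2.14 RPKM of the Y-linked Ddx3y. Ddx3y was 0 RPKM in every day 30 library and 9.91 to 10.5 RPKM at day 14 after bleomycin. It was 15.9 to 23.8 RPKM after pneumonectomy and 11.4 RPKM in sham 2. The sexes thus differed between groups, and all day 30 libraries differed in sex from all day 14 libraries. In every gene compared between them day and sex cannot be told apart, and Col4a5 and Col4a6 are X-linked. The part of sex in the day 30 changes against sham was not tested. Macrophage markers summed to 192 to 696 RPKM at day 30, 121 to 409 at day 14 after bleomycin, 27.4 to 45.9 after pneumonectomy and 28.7 to 33.4 in sham. Mesothelial markers summed to 6.50 to 20.1, 2.73 to 4.76, 12.9 to 44.5 and 5.45 to 6.06 RPKM in the same 4 groups, and Schwann cell markers to 4.35 to 7.02, 2.85 to 3.99, 2.81 to 7.02 and 2.95 to 3.73 RPKM.

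Levels are given below as deposited, whereas log2 changes are from a limma fit after scaling. The scaling divided the values by 1.037 to 1.075 at day 30, 1.102 to 1.178 at day 14 after bleomycin, 0.814 to 0.8483 after pneumonectomy and 0.9645 to 0.9663 in sham, and 0.1 RPKM was added before the logarithm. On the scale as deposited the median gene differed by 0.47 on the log2 scale between day 14 bleomycin and pneumonectomy, by 0.26 between day 14 bleomycin and sham, by -0.21 between pneumonectomy and sham, by 0.11 between day 30 and sham and by -0.13 between day 30 and day 14. Changes are therefore relative to the median gene. A gene was tested where 2 or more libraries reached 1 RPKM, which 12938 did. Their limma p-values were adjusted together by the Benjamini-Hochberg method, and an adjusted p under 0.05 was called. Of the 32 genes, 28 were tested. Lama3, Lamb3, Fras1 and Frem2 stayed under 1 RPKM in every library, and Lama1 was kept through the 3 day 14 bleomycin libraries alone. Col4a3 was kept through 4 pneumonectomy and sham libraries, so its lower calls after bleomycin follow in part from the filter. Frem1 reached 1 RPKM in no sham library, and Col4a4 in no day 14 bleomycin library. Calls of Frem1 against sham and of Col4a4 at day 14 after bleomycin thus also follow in part from the filter. Fewer cells of a type and less RNA per cell cannot be told apart in such bulk samples.

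At day 14 after bleomycin most tested basement membrane genes were lower than in sham, while collagen IV chains 1 and 2 and laminin alpha 1 and alpha 5 were higher. Of the 28 tested, 6 were called higher (21.4%) and 17 lower (60.7%), against 33.4% and 29.9% of all 12938 genes, where 63.3% were called in either direction. The higher genes included Lama1 and Frem1 and the lower ones Col4a3 and Col4a4, whose calls follow in part from the filter. The median log2 change of the 28 was -0.56, against 0.02 over all genes. On the scale as deposited the split was 8 higher and 14 lower. Shares over all genes, here and below, are those of the main fit, and none was counted for the other settings. After pneumonectomy the split against sham ran the other way: 15 of 28 were higher (53.6%) and 1 lower (3.57%), against 22.6% and 19.3% of all genes, with 42.0% called in either direction. Frem1, among the higher genes, was again called in part through the filter. The median of the 28 was 0.49, against 0.01. On the scale as deposited 12 were higher and 5 lower, and with upper-quartile scaling 13 and 4.

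At day 30 after bleomycin 5 of 28 were higher than in sham (17.9%) and 13 lower (46.4%), against 14.8% and 14.1% of all genes, with 28.8% called in either direction. The share of higher genes was close to that of all genes. Frem1 was among the higher and Col4a3 among the lower genes, in part through the filter. The median of the 28 was -0.30, against -0.00, and without sham replicate 2 the number of lower genes was 8. Set against pneumonectomy directly, day 14 bleomycin libraries were higher in 2 of the 28 genes (7.14%) and lower in 23 (82.1%), against 36.2% and 34.6% of all genes, with 70.8% called in either direction. The median was -1.17, against 0.02, and on the scale as deposited 5 were higher and 20 lower. The higher genes after scaling were Col4a2 and Lama1, and the calls of Lama1, Col4a3 and Col4a4 follow in part from the filter. From day 14 to day 30 after bleomycin, 17 of 28 were higher at day 30 (60.7%) and 6 lower (21.4%), against 28.9% and 30.7% of all genes, with 59.6% called in either direction. The median was 0.41, against -0.01. Lama1 and Col4a4 were called here too in part through the filter, and day and sex cannot be told apart in this comparison. The 3 comparisons with sham share its 2 libraries, so their values are given side by side and no more. Likewise the 3 comparisons that include day 14 bleomycin share its 3 libraries, so their counts are no separate support for each other. The plot of log2 changes against sham sets the 3 beside each other for each gene.

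**Figure D1:**
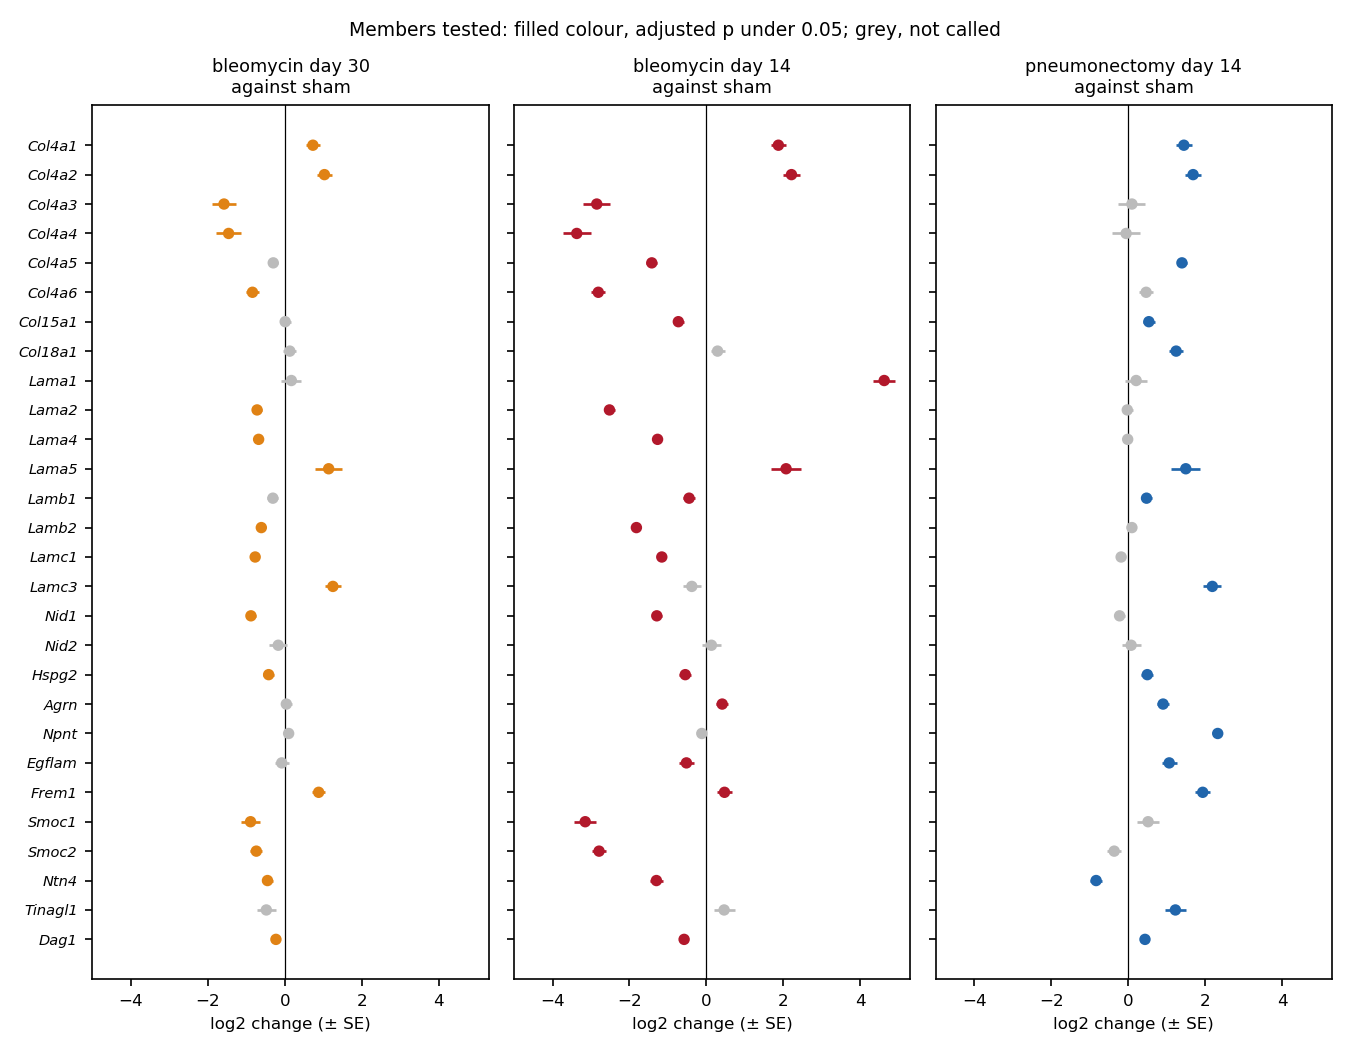
Log2 change with its SE for each of the 28 basement membrane genes tested, for bleomycin day 30, bleomycin day 14 and pneumonectomy day 14, each against sham; coloured points were called at an adjusted p under 0.05 and grey points were not. Col4a1, Col4a2 and Lama5 lie right of 0 in the 3 panels, and Lama1 lies far to the right at bleomycin day 14 alone, at 4.62.

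Collagen IV chains 1 and 2, the partners of the widespread trimer, were the most abundant network collagens and rose in each treated group. Col4a1 had 86.8, 123, 119, 149 and 154 RPKM at day 30 after bleomycin, 286, 299.6 and 307 RPKM at day 14, 166, 143 and 174 RPKM after pneumonectomy, and 60.4 and 77.8 RPKM in sham. Col4a2 had 54.6, 81.1, 80.2, 99.0 and 97.0 RPKM at day 30, 196, 202 and 199.7 RPKM at day 14 after bleomycin, 101, 88.6 and 114 RPKM after pneumonectomy, and 32.4 and 40.7 RPKM in sham. For both genes the day 14 bleomycin libraries were above all others, and every treated library was above both sham libraries. The log2 change of Col4a1 against sham was 0.73 ± 0.19 (SE) at day 30 (adjusted p = 0.0134), 1.87 ± 0.20 at day 14 after bleomycin (9.56e-06) and 1.45 ± 0.20 after pneumonectomy (0.000237). Without sham replicate 1 the day 30 value was 0.55 and was no longer called. Col4a2 changed by 1.03 ± 0.19 at day 30 (adjusted p = 0.00282), 2.21 ± 0.21 at day 14 after bleomycin (3.34e-06) and 1.69 ± 0.21 after pneumonectomy (0.000108).

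Day 14 bleomycin against pneumonectomy gave 0.52 ± 0.19 for Col4a2 (adjusted p = 0.0267) and 0.42 ± 0.18 for Col4a1 (0.0541, 95% interval 0.03 to 0.82), which missed the threshold. The call of Col4a2 was lost without day 14 bleomycin replicate 1 or 2 or pneumonectomy library A or B, at 0.43 to 0.52, and Col4a1 was called on the scale as deposited (0.89) and with upper-quartile scaling (0.54). From day 14 to day 30 after bleomycin Col4a1 fell by 1.14 ± 0.16 and Col4a2 by 1.18 ± 0.17 on the log2 scale (adjusted p = 9.27e-05 and 8.96e-05). The ratio of the 2 levels, Col4a1 over Col4a2, was 1.49 to 1.59 at day 30, 1.46 to 1.54 at day 14 after bleomycin, 1.52 to 1.65 after pneumonectomy and 1.86 and 1.91 in sham. Endothelial cells also make both chains, and the endothelial marker sums were highest in the day 14 bleomycin libraries. The library with the lowest of those 3 sums, replicate 1 with 442 RPKM, had 286 RPKM of Col4a1 and 196 RPKM of Col4a2. The part of endothelial RNA in these values was not tested.

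Collagen IV chains 3 to 6, whose trimers include that of the alveolar basement membrane, fell at day 14 after bleomycin. Col4a5 had 20.4, 22.8, 24.2, 25.7 and 25.9 RPKM at day 30, 9.78, 14.3 and 11.8 RPKM at day 14 after bleomycin, 68.9, 56.1 and 59.4 RPKM after pneumonectomy, and 27.2 and 26.7 RPKM in sham. Its 4 groups did not overlap. Col4a5 changed against sham by -1.42 ± 0.14 at day 14 after bleomycin (adjusted p = 4.45e-06) and by 1.40 ± 0.14 after pneumonectomy (2.56e-05), and the direct difference of the 2 was -2.83 ± 0.13 (2.78e-08). At day 30 its difference from sham was -0.30 ± 0.13 (adjusted p = 0.0994) and was not called. Col4a6 had 8.52, 8.45, 6.60, 7.47 and 7.53 RPKM at day 30, 1.46, 2.59 and 2.25 RPKM at day 14 after bleomycin, 15, 14.5 and 16.0 RPKM after pneumonectomy, and 14 and 11.6 RPKM in sham. The day 14 bleomycin libraries were the lowest and the day 30 libraries lay between them and sham. Col4a6 changed against sham by -0.84 ± 0.16 at day 30 (adjusted p = 0.00338) and -2.81 ± 0.18 at day 14 after bleomycin (2.18e-07). After pneumonectomy its difference from sham was 0.47 ± 0.18 (adjusted p = 0.0507), which missed the threshold, and it was called with a pseudocount of 1 RPKM or a filter of 5 RPKM.

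Col4a3 and Col4a4, which form the alveolar and glomerular trimer with chain 5, were low genes. Col4a3 had 0.362, 0.391, 0.476, 0.373 and 0.334 RPKM at day 30, 0.0717, 0.168 and 0.0953 RPKM at day 14 after bleomycin, 1.19, 1.21 and 1.07 RPKM after pneumonectomy, and 0.688 and 2.22 RPKM in sham. Col4a4 had 1.21, 1.06, 1.36, 1.13 and 0.906 RPKM at day 30, 0.10, 0.412 and 0.292 RPKM at day 14 after bleomycin, 2.47, 2.45 and 2.54 RPKM after pneumonectomy, and 1.97 and 4.57 RPKM in sham. In both genes the day 14 bleomycin libraries were lowest, the day 30 libraries came next, and the 2 sham libraries were farther apart than the 3 pneumonectomy libraries. Col4a3 changed against sham by -2.85 ± 0.35 at day 14 after bleomycin (adjusted p = 2.83e-05) and Col4a4 by -3.37 ± 0.36 (8.71e-06). Both stayed called at -3.63 and -3.96 when sham replicate 1 was left out, and at -2.07 and -2.79 when replicate 2 was. At day 30 the changes were -1.58 ± 0.32 (adjusted p = 0.00473) and -1.46 ± 0.33 (0.00761). Leaving out sham replicate 1 gave -2.36 and -2.05. Leaving out sham replicate 2 gave -0.80 and -0.88, neither of which was called. Neither was called after pneumonectomy, with 95% intervals of -0.68 to 0.87 for Col4a3 and -0.83 to 0.73 for Col4a4. Without strand, the 5.65% of Col4a3 exon bases that overlap another gene cannot be assigned.

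Between day 14 and day 30 after bleomycin chains 3 to 6 were each higher at day 30, the opposite of chains 1 and 2. The log2 changes were 1.27 ± 0.28 for Col4a3 (adjusted p = 0.00234), 1.91 ± 0.29 for Col4a4 (0.000139), 1.12 ± 0.11 for Col4a5 (5.50e-06) and 1.97 ± 0.14 for Col4a6 (4.51e-07), and that of Col4a3 was 0.32 and not called with a pseudocount of 1 RPKM. Day 14 bleomycin against pneumonectomy gave -2.94 ± 0.32 for Col4a3 (adjusted p = 6.73e-06), -3.32 ± 0.32 for Col4a4 (3.11e-06) and -3.28 ± 0.16 for Col4a6 (4.41e-08). The sexes of the libraries differed between day 30 and day 14, so day and sex cannot be told apart for any of the 6 chains. Col4a5 and Col4a6 are X-linked and Col4a3 and Col4a4 lie on chromosome 1. The part of sex was not tested for either pair. The smooth muscle and pericyte sum was also lowest at day 14 after bleomycin (125 to 169 RPKM) and highest after pneumonectomy (359 to 509.5 RPKM), and its part in the values of chains 5 and 6 was not tested. Its markers did not move together at day 14 after bleomycin. Myh11 (18.3 to 36.4 RPKM), Cnn1, Lmod1, Kcnj8 and Abcc9 were below both sham libraries. Rgs5, Higd1b and Trpc6 (1.01 to 1.06 RPKM) were above both, and Des, Actg2, Cspg4 and Notch3 overlapped with sham. The plot of the 6 chains shows every library.

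**Figure D2:**
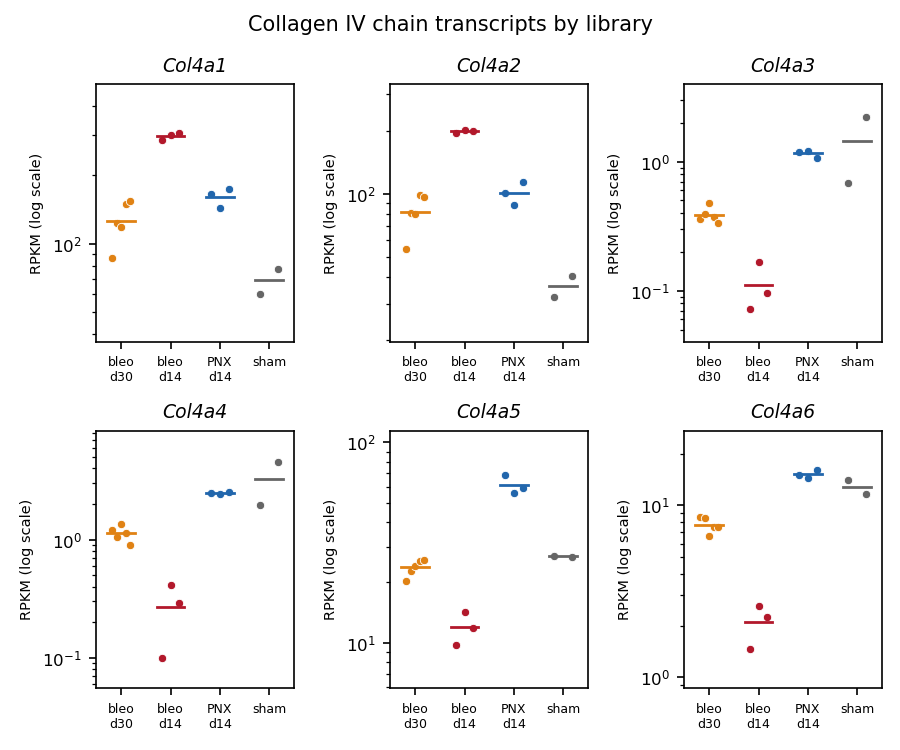
RPKM of the 6 collagen IV chain genes on log axes, 1 point per library and a line at the group mean, for bleomycin day 30 (n = 5), bleomycin day 14 (n = 3), pneumonectomy day 14 (n = 3) and sham (n = 2). Col4a1 and Col4a2 are highest and Col4a3 to Col4a6 lowest at bleomycin day 14, and Col4a5 is highest after pneumonectomy, at 56.1 to 68.9 RPKM.

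The make-up of the collagen IV transcripts changed accordingly. Chains 3 to 6 made up 12.2% to 17.7% of the summed collagen IV RPKM at day 30, 2.31% to 3.37% at day 14 after bleomycin, 21.5% to 24.7% after pneumonectomy, and 32.1% and 27.6% in sham. These shares did not overlap between groups. The summed collagen IV level was 172 to 286 RPKM at day 30, 493 to 522 RPKM at day 14 after bleomycin, 306 to 367 RPKM after pneumonectomy, and 137 and 164 RPKM in sham. Every treated library was above both sham libraries in this sum. Within the X-linked pair, Col4a5 over Col4a6 was 2.40 to 3.67 at day 30, 5.24 to 6.68 at day 14 after bleomycin, 3.72 to 4.60 after pneumonectomy, and 1.94 and 2.30 in sham. The ratio was lowest in sham, whereas Col4a4 over Col4a3 was 2.72 to 3.34 at day 30, 1.40 to 3.07 at day 14 after bleomycin, 2.02 to 2.39 after pneumonectomy, and 2.87 and 2.06 in sham, with groups that overlapped. Shares and ratios are descriptions and were not tested.

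**Figure D3:**
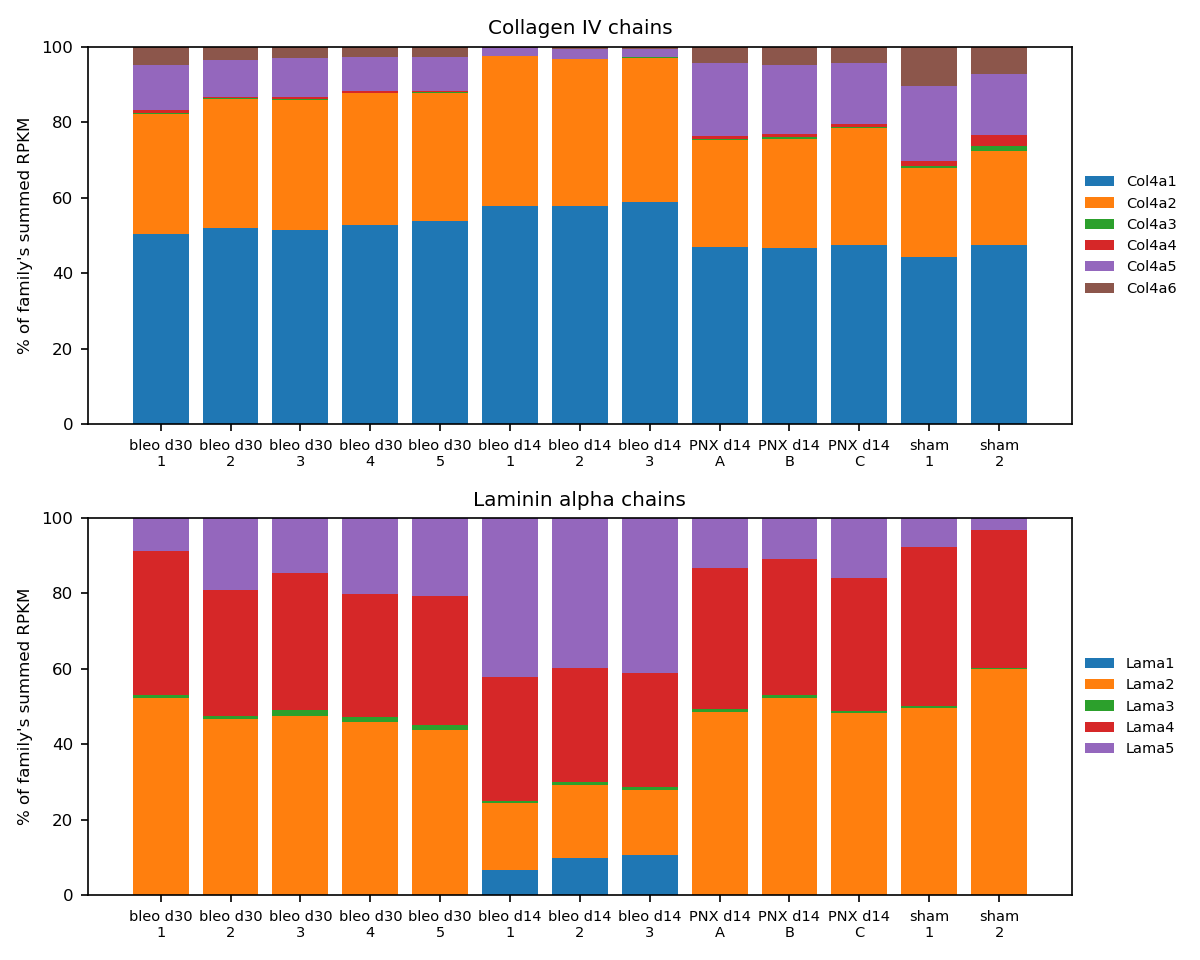
Percent of the summed RPKM of each family contributed by each collagen IV chain (upper panel) and each laminin alpha chain (lower panel), 1 stacked bar per library. Col4a5 and Col4a6 are thin at bleomycin day 14, and the 3 bleomycin day 14 bars have the most Lama5, at 39.9% to 42.2%, and the only visible Lama1, at 6.57% to 10.7%.

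Of the collagens with heparan or chondroitin sulfate chains, Col15a1 anchors the basement membrane to the fibrils beneath it. It had 57.7, 47.9, 57.3, 66.8 and 53.9 RPKM at day 30, 36.4, 34.9 and 39.1 RPKM at day 14 after bleomycin, 73.5, 53.3 and 67.3 RPKM after pneumonectomy, and 55.2 and 48.1 RPKM in sham. The day 14 bleomycin libraries were below all others. Col15a1 fell by 0.73 ± 0.15 on the log2 scale at day 14 after bleomycin against sham (adjusted p = 0.00107) and differed from pneumonectomy by -1.27 ± 0.13 (5.27e-06). Its rise of 0.54 ± 0.15 after pneumonectomy (adjusted p = 0.0127), where the groups overlapped, was lost on the scale as deposited (0.32) and without sham replicate 2 (0.44). Day 30 was higher than day 14 by 0.74 ± 0.12 (adjusted p = 0.000215). Col18a1, whose C-terminal fragment is endostatin, had 28.3, 37.3, 33.2, 41.9 and 41.1 RPKM at day 30, 41.2, 44.9 and 44.9 RPKM at day 14 after bleomycin, 57.2, 52.0 and 77.9 RPKM after pneumonectomy, and 34.3 and 26.6 RPKM in sham. It was highest after pneumonectomy, at 1.25 ± 0.18 against sham (adjusted p = 0.000313), and day 14 bleomycin differed from pneumonectomy by -0.96 ± 0.16 (0.000235). It was not called in either bleomycin group against sham (adjusted p = 0.571 at day 30 and 0.189 at day 14).

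Among the laminin alpha chains, Lama2 and Lama4 fell at day 14 after bleomycin, and Lama5 and Lama1 rose. Lama2, the alpha chain of muscle and Schwann cell laminin, had 20.6, 20.6, 19.0, 22.0 and 19.7 RPKM at day 30, 6.31, 6.69 and 6.01 RPKM at day 14 after bleomycin, 24.9, 28.3 and 25.3 RPKM after pneumonectomy, and 25.2 and 38.1 RPKM in sham. Lama4, an alpha chain of vascular and mesenchymal laminins, had 15.2, 14.8, 14.6, 15.7 and 15.5 RPKM at day 30, 11.6, 10.6 and 10.6 RPKM at day 14 after bleomycin, 19.2, 19.5 and 18.6 RPKM after pneumonectomy, and 21.6 and 23.3 RPKM in sham. Both were lowest at day 14 after bleomycin, with no overlap with any other group. Lama2 changed against sham by -0.72 ± 0.13 at day 30 (adjusted p = 0.00238) and -2.52 ± 0.14 at day 14 (1.31e-07), and Lama4 by -0.68 ± 0.07 (0.000123) and -1.27 ± 0.08 (1.52e-07). Neither was called after pneumonectomy against sham (adjusted p = 0.908 and 0.942). Day 14 bleomycin against pneumonectomy gave -2.49 ± 0.13 for Lama2 (adjusted p = 5.25e-08) and -1.26 ± 0.07 for Lama4 (6.36e-08). Both were higher at day 30 than at day 14 after bleomycin, by 1.79 ± 0.11 (adjusted p = 1.91e-07) and 0.59 ± 0.06 (6.47e-06). Endothelial cells express Lama4, and the endothelial marker sums were highest where Lama4 was lowest, but the part of endothelial RNA in Lama4 was not tested.

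Lama5, the main alpha chain of adult epithelial and endothelial laminin, had 3.43, 8.45, 5.84, 9.69 and 9.28 RPKM at day 30, 14.9, 13.9 and 14.4 RPKM at day 14 after bleomycin, 6.78, 5.91 and 8.39 RPKM after pneumonectomy, and 3.87 and 2.04 RPKM in sham. The day 14 bleomycin libraries were above all others, and day 30 replicate 1 lay between the 2 sham libraries. Lama5 changed against sham by 1.14 ± 0.35 at day 30 (adjusted p = 0.0313), 2.07 ± 0.38 at day 14 after bleomycin (0.000585) and 1.50 ± 0.38 after pneumonectomy (0.00915). Without sham replicate 2 the day 30 value was 0.69 and the pneumonectomy value 1.05, and neither was called. The day 30 call was also lost without a gene filter and without day 30 replicate 2, 4 or 5 (1.02 to 1.06). Day 14 bleomycin differed from pneumonectomy by 0.58 ± 0.34 (adjusted p = 0.150, 95% interval -0.17 to 1.33) after scaling and by 1.04 on the scale as deposited, where it was called. From day 14 to day 30 it fell by 0.93 ± 0.31 on the log2 scale (adjusted p = 0.0207), a call lost without day 14 replicate 1 (-0.89). Endothelial marker sums were also highest at day 14 after bleomycin, and their part in Lama5 was not tested.

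Lama1, the alpha chain of the first embryonic laminin, exceeded 0.1 RPKM in the day 14 bleomycin libraries alone. It had 0.00952, 0.0320, 0.0239, 0.0322 and 0.0620 RPKM at day 30, 2.32, 3.46 and 3.73 RPKM at day 14 after bleomycin, 0.0126, 0.0209 and 0.0534 RPKM after pneumonectomy, and 0.0218 and 0.00731 RPKM in sham. About 1796, 3348 and 3164 reads lay behind the day 14 bleomycin values and 5.09 to 91.7 behind each of the others. With 0.1 RPKM added, which understates changes of low genes, day 14 bleomycin was higher by 4.62 ± 0.29 against sham (adjusted p = 1.96e-07) and 4.40 ± 0.26 against pneumonectomy (1.08e-07), and day 30 differed from day 14 by -4.45 ± 0.23 (6.42e-08). Since Lama1 passed the filter through this group alone, these calls follow in part from the filter. Among the 3 libraries the lowest value, 2.32 RPKM, was in replicate 1, which also had the lowest endothelial marker sum (442 RPKM against 821 and 775 in replicates 2 and 3). The part of endothelial RNA in Lama1 was not tested. Lama3, an alpha chain of epithelial laminin, stayed at 0.236 to 0.664 RPKM at day 30, 0.169 to 0.259 at day 14 after bleomycin, 0.288 to 0.461 after pneumonectomy, and 0.198 and 0.0958 in sham, and was not tested.

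In the make-up of the alpha chains, Lama1 and Lama5 together held 8.70% to 20.7% of the summed RPKM at day 30, 48.7% to 51.9% at day 14 after bleomycin, 10.9% to 16.0% after pneumonectomy, and 7.64% and 3.23% in sham. The day 14 bleomycin libraries stood above the rest, with no overlap. The summed alpha chain level was 39.5 to 48.1 RPKM at day 30, 34.9 to 35.3 RPKM at day 14 after bleomycin, 51.3 to 54.2 RPKM after pneumonectomy, and 50.9 and 63.5 RPKM in sham. Lama5 over Lama2 was 0.166 to 0.472 at day 30, 2.08 to 2.40 at day 14 after bleomycin, 0.209 to 0.331 after pneumonectomy, and 0.153 and 0.0536 in sham. Lama5 thus exceeded Lama2 in the 3 day 14 bleomycin libraries and in none of the other 10.

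The beta chains differed from each other. Lamb2, the beta chain of muscle, synapse and vessel laminins, had 48.7, 52.7, 54.2, 49.9 and 50.6 RPKM at day 30, 20.7, 27.3 and 25.0 RPKM at day 14 after bleomycin, 63.4, 64.3 and 70.7 RPKM after pneumonectomy, and 75.5 and 68.9 RPKM in sham. Both bleomycin groups were below the others, and day 14 was lowest. Lamb2 changed by -0.61 ± 0.09 at day 30 (adjusted p = 0.000879) and -1.82 ± 0.10 at day 14 after bleomycin (1.14e-07) against sham, and was not called after pneumonectomy (0.457). Day 14 bleomycin against pneumonectomy gave -1.91 ± 0.09 (adjusted p = 3.13e-08), and day 30 against day 14 gave 1.20 ± 0.08 (2.43e-07). Lamb1, the widespread beta chain, changed less: it averaged 26.7 ± 1.85 RPKM at day 30 (SD, n = 5), 26.6 ± 4.66 RPKM at day 14 after bleomycin (n = 3), 36.3 ± 0.812 RPKM after pneumonectomy (n = 3) and 30.6 ± 5.83 RPKM in sham (n = 2). Its calls of -0.45 ± 0.15 at day 14 after bleomycin (adjusted p = 0.0212) and 0.48 ± 0.15 after pneumonectomy (0.0231) against sham were both lost on the scale as deposited (-0.20 and 0.26), and day 14 bleomycin libraries overlapped with sham. The difference between the 2, -0.93 ± 0.13, was called (adjusted p = 6.70e-05). Lamb1 over Lamb2 was 0.447 to 0.565 at day 30, 0.846 to 1.54 at day 14 after bleomycin, 0.505 to 0.579 after pneumonectomy, and 0.351 and 0.504 in sham. Lamb3, the beta chain of epithelial laminin-332, was not tested, and its 0.930 RPKM in day 30 replicate 3 stood against 0.117 to 0.154 RPKM in the other 4 day 30 libraries.

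Lamc1, the gamma chain of nearly all laminins, had 48.4, 49.7, 52.6, 52.3 and 53.3 RPKM at day 30, 46.5, 40.2 and 40.9 RPKM at day 14 after bleomycin, 59.5, 59.3 and 62.8 RPKM after pneumonectomy, and 77.5 and 83.2 RPKM in sham. The order of the groups was sham, pneumonectomy, day 30 and day 14 bleomycin, with no overlap between neighbours. It changed by -0.77 ± 0.08 at day 30 (adjusted p = 0.000165) and -1.16 ± 0.09 at day 14 (8.50e-07) against sham. Its difference after pneumonectomy was not called after scaling (adjusted p = 0.126). The difference from pneumonectomy at day 14 after bleomycin was -0.98 ± 0.08 (adjusted p = 1.02e-06), and day 30 differed from day 14 by 0.39 ± 0.07 (0.000642). Lamc3, a gamma chain of a few specialised basement membranes, had 4.17, 6.28, 4.93, 7.54 and 7.57 RPKM at day 30, 1.89, 2.06 and 2.11 RPKM at day 14 after bleomycin, 10.2, 9.99 and 7.37 RPKM after pneumonectomy, and 2.16 and 2.33 RPKM in sham. Day 30 and pneumonectomy libraries were all above sham, and day 14 bleomycin libraries were just under it. Lamc3 changed by 1.25 ± 0.21 at day 30 (adjusted p = 0.00176) and 2.19 ± 0.23 after pneumonectomy (3.87e-05), and its -0.38 ± 0.23 at day 14 after bleomycin was not called (0.170). It was lower at day 14 after bleomycin than after pneumonectomy (-2.57 ± 0.21, adjusted p = 7.92e-07) and higher at day 30 than at day 14 (1.63 ± 0.18, 1.60e-05). Of its exon bases 6.27% overlap another gene.

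**Figure D4:**
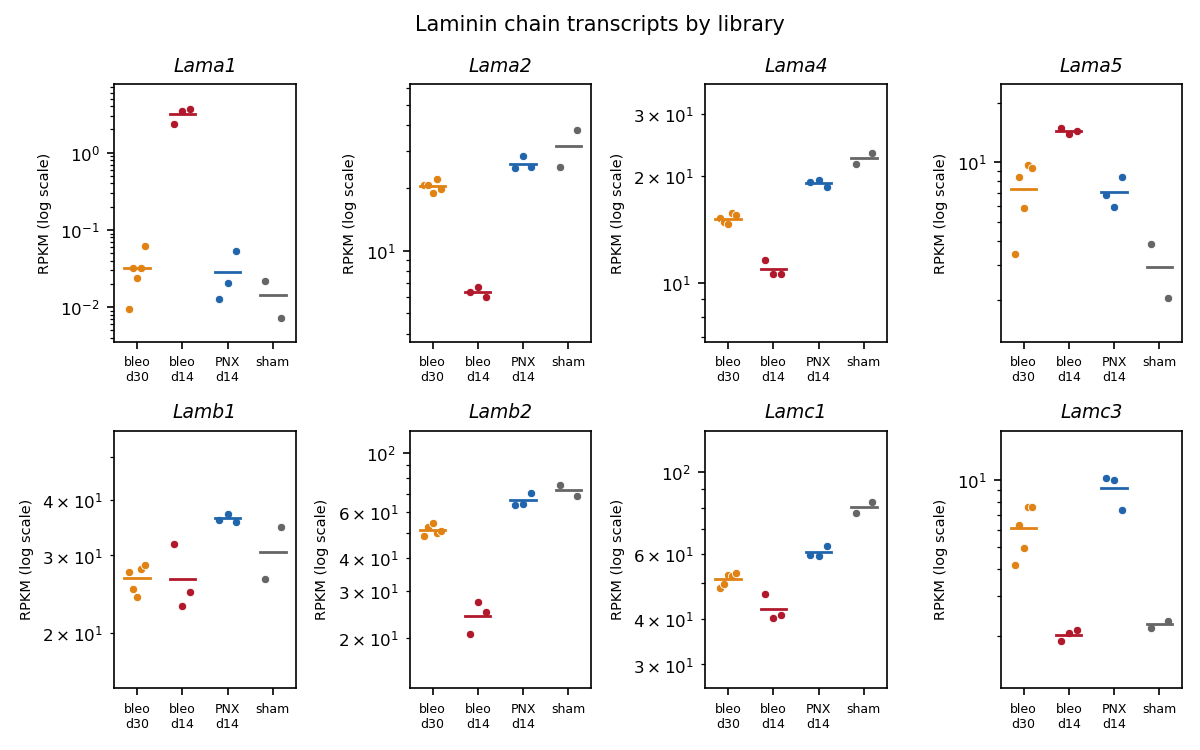
RPKM of 8 laminin chain genes on log axes, 1 point per library and a line at the group mean, in the same 4 groups. Lama2, Lama4, Lamb2 and Lamc1 are lowest and Lama1 and Lama5 highest at bleomycin day 14, and Lamc3 is highest after pneumonectomy, at 7.37 to 10.2 RPKM.

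Of the linkers, Nid1, which bridges laminin gamma 1 and collagen IV, had 60.6, 56.5, 68.9, 59.5 and 65.7 RPKM at day 30, 52.2, 53.3 and 47.2 RPKM at day 14 after bleomycin, 85.6, 72.6 and 75.0 RPKM after pneumonectomy, and 93.6 and 118 RPKM in sham. Its 4 groups did not overlap and had the order of Lamc1. Nid1 changed by -0.88 ± 0.12 at day 30 (adjusted p = 0.000479) and -1.29 ± 0.13 at day 14 (4.79e-06) against sham, and was not called after pneumonectomy (0.193). Day 14 bleomycin differed from pneumonectomy by -1.07 ± 0.11 (adjusted p = 6.43e-06), and day 30 from day 14 by 0.41 ± 0.10 (0.00455). Nid2, its paralog, was the tested gene that none of the 5 comparisons called, at 5.25 to 6.21 RPKM at day 30, 6.01 to 10.7 at day 14 after bleomycin, 4.42 to 6.74 after pneumonectomy, and 4.79 and 7.46 in sham. Its 95% interval at day 14 after bleomycin against sham was -0.41 to 0.68, and 8.45% of its exon bases overlap another gene.

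Hspg2 encodes perlecan, the main heparan sulfate proteoglycan of basement membranes. It had 38.0, 40.9, 40.6, 51.0 and 43.8 RPKM at day 30, 50.0, 38.0 and 40.1 RPKM at day 14 after bleomycin, 57.7, 59.2 and 75.2 RPKM after pneumonectomy, and 52.6 and 52.4 RPKM in sham. Pneumonectomy libraries were above sham and bleomycin libraries below it. Day 14 bleomycin differed from pneumonectomy by -1.05 ± 0.14 (adjusted p = 3.44e-05). Against sham the changes were -0.42 ± 0.14 at day 30 (adjusted p = 0.0459), -0.55 ± 0.16 at day 14 (0.00855) and 0.50 ± 0.16 after pneumonectomy (0.0233), and on the scale as deposited they were -0.30, -0.31 and 0.27 and none was called. Agrn encodes agrin, a proteoglycan that clusters receptors at the neuromuscular synapse and binds dystroglycan. It averaged 9.60 ± 1.47 RPKM at day 30 (SD, n = 5), 13.5 ± 1.87 at day 14 after bleomycin (n = 3), 13.8 ± 1.36 after pneumonectomy (n = 3) and 8.57 ± 1.27 in sham (n = 2). It rose by 0.91 ± 0.16 after pneumonectomy (adjusted p = 0.000985). Its call at day 14 after bleomycin against sham (0.41 ± 0.16, adjusted p = 0.0418) was lost in 8 other settings, among them the fit without sham replicate 2 (0.25). The call against pneumonectomy (-0.50 ± 0.14, adjusted p = 0.00751) became -0.04 on the scale as deposited. From day 14 to day 30 Agrn fell by 0.37 ± 0.13 on the log2 scale (adjusted p = 0.0256), a call lost without day 14 replicate 2 (-0.30) or 3.

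Among the associated proteins, Npnt and Egflam were higher in each pneumonectomy library than in any other library. Npnt encodes nephronectin, the ligand of integrin alpha 8 beta 1. It had 41.2, 44.8, 40.1, 46.4 and 48.4 RPKM at day 30, 42.5, 38.5 and 42.5 RPKM at day 14 after bleomycin, 145, 157 and 192 RPKM after pneumonectomy, and 41.2 and 34.7 RPKM in sham. Its values were high after pneumonectomy alone, and the other 10 libraries lay within 34.7 to 48.4 RPKM. Npnt rose by 2.33 ± 0.12 after pneumonectomy against sham (adjusted p = 8.83e-07), and the difference of day 14 bleomycin from pneumonectomy was -2.45 ± 0.11 (2.78e-08). It was not called in the other 3 comparisons (adjusted p = 0.525 at day 30 and 0.403 at day 14 against sham, and 0.0678 between the times). Epithelial markers were also above sham in the 3 pneumonectomy libraries, at sums of 517, 105 and 52.9 RPKM in libraries A, B and C, where Npnt was 145, 157 and 192 RPKM. Scgb1a1 alone gave 418, 61.9 and 9.04 RPKM of these sums, and Sftpc 65.1, 28.6 and 25.1 RPKM. In day 30 replicate 3 the epithelial sum was 1429.9 RPKM and Npnt 40.1 RPKM. The part of epithelial RNA in Npnt was not tested.

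Egflam encodes pikachurin, a ligand of dystroglycan. It had 6.91, 8.06, 8.56, 8.91 and 8.98 RPKM at day 30, 5.53, 8.62 and 6.02 RPKM at day 14 after bleomycin, 13.5, 15.5 and 14.7 RPKM after pneumonectomy, and 6.47 and 9.96 RPKM in sham. Pneumonectomy libraries were above all others, and the other groups overlapped. It rose by 1.07 ± 0.20 after pneumonectomy (adjusted p = 0.00129) and differed by -1.59 ± 0.17 between day 14 bleomycin and pneumonectomy (8.39e-06). Its call at day 14 after bleomycin against sham (-0.52 ± 0.20, adjusted p = 0.0356) was lost on the scale as deposited (-0.28) and without sham replicate 2 (-0.22), and that between day 30 and day 14 (0.44 ± 0.16, 0.0294) on the scale as deposited (0.32). Frem1, which with Fras1 and Frem2 makes a complex that holds embryonic epithelium to its dermis, had 1.13 to 1.95 RPKM at day 30, 1.11 to 1.23 at day 14 after bleomycin, 2.27 to 3.07 after pneumonectomy, and 0.737 and 0.652 in sham. It rose by 0.88 ± 0.17 at day 30 (adjusted p = 0.00366) and 1.94 ± 0.19 after pneumonectomy (2.05e-05) against sham. The difference of day 14 bleomycin from sham (0.47 ± 0.19, adjusted p = 0.0457) was lost without any single library of the 2 groups (0.39 to 0.54). That of day 30 from day 14 (0.41 ± 0.15, adjusted p = 0.0348) was lost without any single day 14 library (0.36 to 0.45). The difference of day 14 bleomycin from pneumonectomy was -1.47 ± 0.17 (adjusted p = 1.05e-05). Fras1, at 0.0924 to 0.772 RPKM over the 13 libraries, and Frem2, at 0.0128 to 0.101 RPKM, were not tested.

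Smoc1 and Smoc2 encode calcium-binding matricellular proteins of the SPARC family found at basement membranes, and both fell at day 14 after bleomycin. Smoc1 had 11.4, 10.1, 6.21, 7.40 and 7.37 RPKM at day 30, 1.44, 2.12 and 1.89 RPKM at day 14 after bleomycin, 15.8, 19.5 and 17.6 RPKM after pneumonectomy, and 18.9 and 10.7 RPKM in sham. Smoc2 had 44.6, 41.8, 45.1, 42.8 and 37.8 RPKM at day 30, 9.80, 13.4 and 10.2 RPKM at day 14 after bleomycin, 51.1, 41.2 and 39.3 RPKM after pneumonectomy, and 54.0 and 78.5 RPKM in sham. The day 14 bleomycin libraries were the lowest in both, with no overlap. Against sham Smoc1 changed by -3.15 ± 0.28 at day 14 (adjusted p = 2.06e-06) and Smoc2 by -2.79 ± 0.18 (2.37e-07), and neither was called after pneumonectomy (0.151 and 0.132). At day 30 the changes were -0.89 ± 0.25 (adjusted p = 0.0228) and -0.74 ± 0.16 (0.00710). The first was -0.48 without sham replicate 1 and the second -0.47 without sham replicate 2, and neither was then called. Against pneumonectomy, day 14 bleomycin gave -3.67 ± 0.25 for Smoc1 (adjusted p = 2.53e-07) and -2.44 ± 0.16 for Smoc2 (2.09e-07). From day 14 to day 30 Smoc1 rose by 2.26 ± 0.22 (adjusted p = 5.01e-06) and Smoc2 by 2.05 ± 0.14 (3.54e-07).

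Ntn4, a netrin that binds laminin gamma 1 and can break up laminin networks, was the tested gene that fell after pneumonectomy. It had 13.7, 16.1, 16.2, 14.5 and 14.8 RPKM at day 30, 6.63, 11.1 and 10.0 RPKM at day 14 after bleomycin, 8.59, 8.91 and 9.92 RPKM after pneumonectomy, and 18.4 and 19.6 RPKM in sham. Both day 14 groups were below day 30 and sham, and they overlapped with each other. Ntn4 changed against sham by -0.45 ± 0.14 at day 30 (adjusted p = 0.0345), -1.30 ± 0.16 at day 14 after bleomycin (2.13e-05) and -0.83 ± 0.16 after pneumonectomy (0.00156), and by 0.85 ± 0.12 from day 14 to day 30 (0.000117). The day 30 value was -0.33 and not called on the scale as deposited. Day 14 bleomycin differed from pneumonectomy by -0.47 ± 0.14 after scaling (adjusted p = 0.00935) and by -0.01 on the scale as deposited. Tinagl1, a matricellular protein that binds integrins, had 3.83, 3.91, 3.22, 3.87 and 3.48 RPKM at day 30, 6.61, 7.70 and 9.06 RPKM at day 14 after bleomycin, 9.35, 7.10 and 13.2 RPKM after pneumonectomy, and 6.70 and 3.32 RPKM in sham. Day 30 was below both day 14 groups, and the 2 sham libraries were farther apart than the 3 day 14 bleomycin libraries. It rose by 1.23 ± 0.27 after pneumonectomy (adjusted p = 0.00393), a call lost without sham replicate 2 (0.73), and fell by 0.94 ± 0.21 from day 14 to day 30 (0.00281). The difference of day 14 bleomycin from pneumonectomy (-0.77 ± 0.24, adjusted p = 0.0130) was -0.31 and not called on the scale as deposited.

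**Figure D5:**
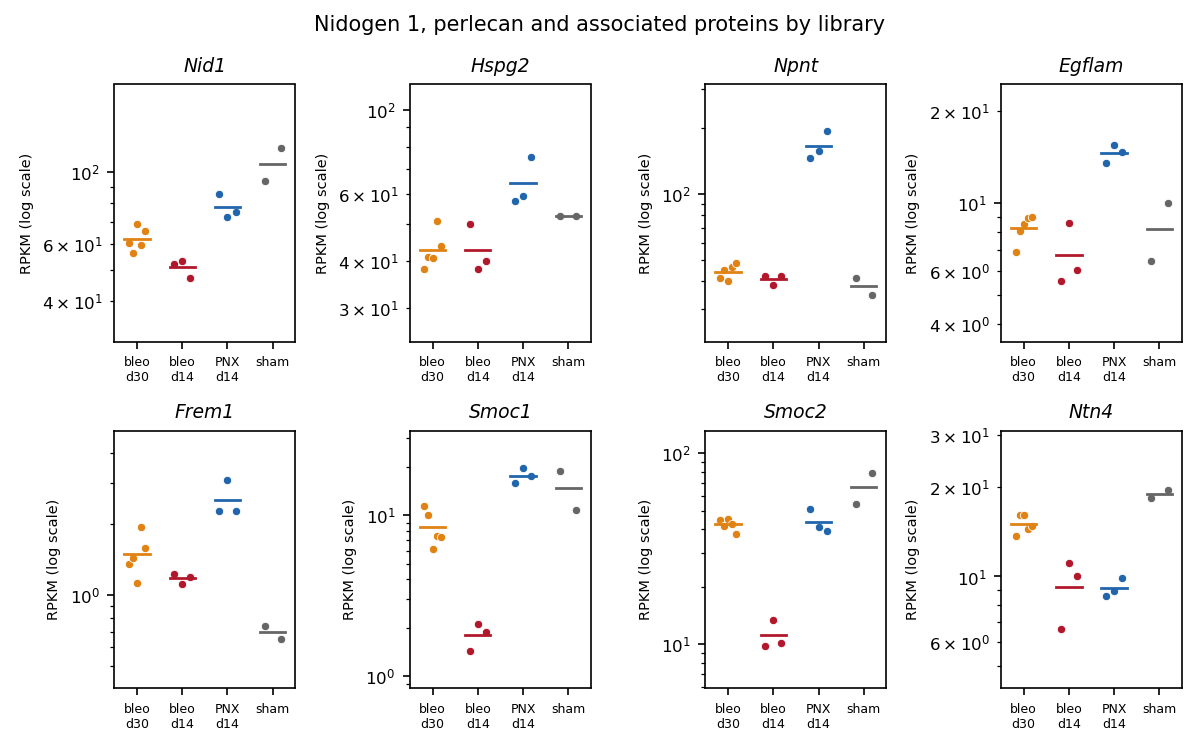
RPKM of Nid1, Hspg2 and 6 associated protein genes on log axes, 1 point per library and a line at the group mean, in the same 4 groups. Npnt is high after pneumonectomy alone, at 145 to 192 RPKM, and Smoc1 and Smoc2 are lowest at bleomycin day 14.

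Dystroglycan, encoded by Dag1, is the receptor that laminin, perlecan, agrin and pikachurin bind through its sugar chains. It had 23.0, 26.4, 27.5, 27.6 and 27.4 RPKM at day 30, 23.1, 21.9 and 22.5 RPKM at day 14 after bleomycin, 32.8, 31.7 and 35.2 RPKM after pneumonectomy, and 27.7 and 29.3 RPKM in sham. Pneumonectomy libraries were above sham and bleomycin libraries below it. Dag1 changed against sham by -0.58 ± 0.09 at day 14 after bleomycin (adjusted p = 0.000109) and 0.44 ± 0.09 after pneumonectomy (0.00182), and the 2 groups differed by -1.03 ± 0.08 (4.59e-07). It was higher at day 30 than at day 14 by 0.35 ± 0.07 (adjusted p = 0.00100). Its day 30 call against sham (-0.23 ± 0.08, adjusted p = 0.0456) was lost on the scale as deposited (-0.11) and in the fit without either sham library (-0.19 and -0.27).

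Genes that work with basement membranes were counted in 4 lists for the 2 day 14 groups. Of 23 receptors tested, 9 were higher and 9 lower at day 14 after bleomycin against sham, and 18 were higher and 1 lower after pneumonectomy, with medians of -0.02 and 0.96 against 0.02 and 0.01 over all genes. Of all genes tested, 33.4% were higher and 29.9% lower in the bleomycin comparison and 22.6% and 19.3% in the pneumonectomy comparison, so the 9 receptors higher after bleomycin were near the share of all genes. The pneumonectomy count was 11 higher and 3 lower on the scale as deposited. Without sham replicate 2, 5 were higher after bleomycin and 9 after pneumonectomy. Between day 14 bleomycin and pneumonectomy 4 were higher and 13 lower (median -0.58), or 6 and 11 on the scale as deposited, against 36.2% and 34.6% of all genes. Itga8, the alpha chain of the nephronectin receptor, averaged 98.7 ± 16.2 RPKM after pneumonectomy (SD, n = 3) and 44.5 ± 12.3 RPKM in sham (n = 2), a change of 1.39 ± 0.19 (adjusted p = 0.000212). With 18.0 ± 2.19 RPKM (n = 3) at day 14 after bleomycin, it differed there from pneumonectomy by -2.91 ± 0.17 (adjusted p = 1.18e-07). Sdc4, a heparan sulfate proteoglycan of the cell surface, averaged 111 ± 17.2 RPKM after pneumonectomy and 23.4 ± 8.64 RPKM in sham and rose by 2.51 ± 0.23 (adjusted p = 1.42e-05). Itgb1, the common beta chain of laminin- and collagen-binding integrins, rose by 0.82 ± 0.11 after pneumonectomy (adjusted p = 0.000177). Ddr2, a collagen receptor kinase, averaged 12.7 ± 0.528 RPKM at day 14 after bleomycin and 52.1 ± 1.14 RPKM in sham and fell by 2.27 ± 0.13 on the log2 scale (adjusted p = 1.20e-07).

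Of 12 tested enzymes that put the laminin-binding sugars on dystroglycan, 3 were higher and 6 lower at day 14 after bleomycin against sham (median -0.27), 1 higher and 6 lower after pneumonectomy (-0.08), and 5 higher and 7 lower between the 2 (-0.19). The shares over all genes were 33.4% higher and 29.9% lower, 22.6% and 19.3%, and 36.2% and 34.6% in these comparisons, with medians of 0.02, 0.01 and 0.02. On the scale as deposited these splits were 4 and 4, 0 and 6, and 8 and 2, and with upper-quartile scaling the last was 5 and 4. Pomgnt2, an enzyme of the core sugar chain, averaged 1.61 ± 0.0980 RPKM at day 14 after bleomycin, 3.14 ± 0.128 after pneumonectomy and 3.58 ± 0.296 in sham. It differed from sham by -1.34 ± 0.08 at day 14 after bleomycin (adjusted p = 2.00e-07) and from pneumonectomy by -1.37 ± 0.07 (6.95e-08). Pomk, a kinase of the same chain, fell in both day 14 groups, by 0.79 ± 0.07 after bleomycin (adjusted p = 1.81e-06) and 0.61 ± 0.07 after pneumonectomy (5.75e-05) on the log2 scale.

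Of 24 genes of matrix assembly and collagen processing tested, 10 were higher and 8 lower at day 14 after bleomycin against sham (median 0.16), 11 higher and 3 lower after pneumonectomy (0.11), and 3 higher and 10 lower between the 2 (-0.08). The bleomycin counts were near the 33.4% higher and 29.9% lower of all genes, which stood at 22.6% and 19.3% for pneumonectomy and 36.2% and 34.6% between the 2. On the scale as deposited the last 2 splits were 8 and 5, and 13 and 5, and the last was 4 and 8 with upper-quartile scaling. P4ha3, a subunit of collagen prolyl hydroxylase, averaged 18.5 ± 2.20 RPKM at day 14 after bleomycin, 2.80 ± 0.320 after pneumonectomy and 0.496 ± 0.0687 in sham, with changes from sham of 4.72 ± 0.40 (adjusted p = 1.65e-06) and 2.50 ± 0.40 (0.000575). Fbln1, a fibulin of basement membranes and elastic fibres, averaged 18.4 ± 6.63 RPKM at day 14 after bleomycin, 144 ± 24.1 after pneumonectomy and 290.0 ± 13.8 in sham. Day 14 bleomycin differed from sham by -4.28 ± 0.26 (adjusted p = 2.01e-07) and from pneumonectomy by -3.48 ± 0.23 (2.57e-07). Hmcn2, a hemicentin, averaged 2.26 ± 0.866 RPKM at day 14 after bleomycin, 19.4 ± 1.88 after pneumonectomy and 25.0 ± 5.13 in sham, with day 14 bleomycin differing from sham by -3.69 ± 0.23 (adjusted p = 2.36e-07) and from pneumonectomy by -3.56 ± 0.21 (1.30e-07).

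Of 25 matrix proteases and inhibitors tested, 8 were higher and 10 lower at day 14 after bleomycin against sham (median -0.18), 12 higher and 7 lower after pneumonectomy (0.48), and 7 higher and 16 lower between the 2 (-1.11). Of all genes 33.4% were higher and 29.9% lower at day 14 after bleomycin against sham, so the 8 higher proteases were near that share, and the shares were 22.6% and 19.3% for pneumonectomy and 36.2% and 34.6% between the 2. The pneumonectomy split was 9 and 9 on the scale as deposited, and 7 were higher in the fits without sham replicate 1 or 2. Mmp2, a gelatinase that also cleaves collagen IV, averaged 78.0 ± 2.82 RPKM at day 14 after bleomycin and 291 ± 39.1 RPKM after pneumonectomy, a difference of -2.36 ± 0.10 (adjusted p = 2.76e-08). Adamts4, an aggrecanase, averaged 47.3 ± 16.1 RPKM after pneumonectomy and 2.85 ± 1.32 RPKM in sham and rose by 4.24 ± 0.36 (adjusted p = 1.00e-05). Adamts5, its relative, averaged 3.55 ± 0.221 RPKM at day 14 after bleomycin, 6.00 ± 0.604 after pneumonectomy and 21.4 ± 3.41 in sham, and fell by 2.79 ± 0.16 after bleomycin (adjusted p = 1.31e-07) and 1.59 ± 0.16 after pneumonectomy (2.44e-05). Sulf2, which removes sulfate from heparan sulfate, averaged 3.96 ± 1.13 RPKM at day 14 after bleomycin and 27.6 ± 5.71 RPKM in sham and fell by 3.03 ± 0.20 (adjusted p = 3.19e-07).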

How the data were processed

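RNA had been sequenced from 13 mouse lung fibroblast libraries, prepared with the TruSeq v2 kit from 200 ng of RNA, per the labels' protocols. The authors deposited RPKM values of 43346 entries, of which 131 share a symbol with another. The submitters' processing notes name the builds mm10 and GRCm38. Aligner, counter and annotation are not given in the sources used here, and neither is a count table.

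RPKM were divided by factors from a trimmed mean of log ratios (trimming 0.3 of ratios and 0.05 of levels at each end), 0.1 RPKM was added and log2 taken. limma 3.58.1 (R 4.3.3) fitted the 13 libraries in 1 model, with trend and robust moderation, for 5 comparisons. Genes needed 1 RPKM in 2 libraries, and p-values were adjusted by the Benjamini-Hochberg method over 12938 genes. The fit was tested on simulated data. Depth was estimated from the steps between low RPKM values with GENCODE M21 exon lengths, and 80.7% to 82.3% of low values per library were whole reads within 0.05. At that depth 1 read in a gene of 2 kb was worth 0.00250 to 0.00739 RPKM. Spearman's rho between libraries of a group was 0.964 to 0.991.

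Groups came from the labels, and pneumonectomy libraries are called A, B and C because their columns carry no replicate number. Values per library are given for members called in at least 1 comparison, with at least 5 RPKM in a group and a log2 change of at least 1 in a comparison that calls them. Col4a3, Col4a4 and Lama1 fell outside this rule and were given after their values were seen. From each related list up to 3 called genes with the smallest p per comparison could be named, and these lists are reported for the 3 comparisons among day 14 bleomycin, pneumonectomy and sham. The members, the related lists and the markers of fibroblasts and of endothelial, epithelial, smooth muscle and pericyte, macrophage, mesothelial and Schwann cells were chosen with earlier results of these data known. The alternatives were other pseudocounts, filters, scalings, fits of the compared groups alone, other moderation, a replicate block and leaving out each library. Promoters are RefSeq windows on GRCm38.p6.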

Additional observations from a re-analysis of the deposited data

Results flagged for a closer look

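In day 30 replicate 3 Lamb3 was at 0.930 RPKM, far from the other 4 libraries of that group at 0.117 to 0.154 RPKM. That library also had the highest epithelial marker sum, 1429.9 RPKM against 9.19 to 19.9 RPKM in the other 4, and the part of epithelial RNA was not tested. In day 30 replicate 1 Dag1 was at 23.0 RPKM, below the other 4 libraries at 26.4 to 27.6 RPKM. Chance sets apart about 1 in 20 groups in this way.

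For 6 genes day 14 bleomycin and day 14 pneumonectomy were called in opposite directions against the same 2 sham libraries. The direct difference of bleomycin from pneumonectomy was called too, but in 1 fit it follows from those 2 changes and is no separate support. Of all genes, 63.3% were called against sham after bleomycin and 42.0% after pneumonectomy. The share called in opposite directions was not counted, so the 6 genes have no such share to be set against. On the log2 scale the direct difference was -2.83 for Col4a5, -1.27 for Col15a1, -0.93 for Lamb1, -1.05 for Hspg2, -1.59 for Egflam and -1.03 for Dag1. On the scale as deposited both calls against sham were lost for Lamb1 (-0.20 and 0.26) and Hspg2 (-0.31 and 0.27). There Col15a1 also lost its call after pneumonectomy (0.32) and Egflam its call after bleomycin (-0.28). The labels describe the preparation of pneumonectomy libraries differently, and any difference in preparation cannot be told apart from the operation.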

How the results depend on the processing

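Over all alternatives, 2023 of 2167 values of named genes kept their direction and their side of the threshold, 135 lost the call, 9 gained one and 0 reversed. Every value kept its call with a pseudocount of 0.01 RPKM and with neither trend nor robust moderation (146 each). On the scale as deposited 14 of 146 lost the call, without a filter 10 and with upper-quartile scaling 6. Leaving out 1 library, 67 of 876 values lost the call. The counts that moved by over 1.5 times were as follows, and the cause was not tested. For the basement membrane genes, 1 was lower after pneumonectomy against sham, but 5 on the scale as deposited, 4 with upper-quartile scaling and 1 to 2 when single libraries were left out. At day 30 against sham 13 were lower, and 8 to 12 when single libraries were left out, with 8 without sham replicate 2. Between day 14 bleomycin and pneumonectomy 2 were higher, but 1 with a filter of 5 RPKM, 5 on the scale as deposited, 4 in the compared groups alone and 1 to 2 when single libraries were left out. For receptors, 9 were higher at day 14 after bleomycin against sham, and 5 to 9 when single libraries were left out. After pneumonectomy 18 were higher and 1 lower, but 11 and 3 on the scale as deposited, 2 lower with upper-quartile scaling, and 9 to 14 higher when single libraries were left out. For dystroglycan glycosylation, 3 were higher at day 14 after bleomycin against sham, and 0 to 3 when single libraries were left out, while 6 were lower, but 1 with a filter of 5 RPKM. After pneumonectomy 1 was higher, but 0 without a filter, on the scale as deposited, with upper-quartile scaling and in the compared groups alone, and 0 to 1 when single libraries were left out. There 6 were lower, but 2 with a filter of 5 RPKM and 3 in the compared groups alone. Between day 14 bleomycin and pneumonectomy 5 were higher, but 3 with a filter of 5 RPKM, 8 on the scale as deposited, 3 in the compared groups alone and 3 to 5 when single libraries were left out. There 7 were lower, but 1 with a filter of 5 RPKM, 2 on the scale as deposited and 4 with upper-quartile scaling. For assembly and collagen processing, 3 were lower after pneumonectomy against sham, but 5 on the scale as deposited and 0 to 3 when single libraries were left out. Between day 14 bleomycin and pneumonectomy 3 were higher and 10 lower, but 13 and 5 on the scale as deposited. For proteases, 12 were higher after pneumonectomy against sham, and 7 to 12 when single libraries were left out, while 7 were lower, but 4 without a filter, 4 in the compared groups alone and 3 to 6 when single libraries were left out. Between day 14 bleomycin and pneumonectomy 7 were higher, but 4 with a filter of 5 RPKM. The lowest of these leave-one-out counts came without sham replicate 2 for receptors, for dystroglycan enzymes at day 14 after bleomycin against sham, for assembly genes and for proteases lower after pneumonectomy. They came without either sham library for proteases higher after pneumonectomy, and without pneumonectomy library A or B for dystroglycan enzymes between the day 14 groups. The fit with the replicate number as a block could be made for the sham and bleomycin libraries. It gave 5 higher and 15 lower basement membrane genes at day 14 against sham, 1 and 1 at day 30 against sham, and 13 and 4 between the times, and 1 higher dystroglycan enzyme at day 14 against sham. The same libraries without the block, a fit chosen after seeing the data, gave 5 and 15, 5 and 10, and 17 and 6 basement membrane genes. The deviations of libraries from their group means showed no clear pairing by number. Same-numbered libraries correlated at 0.00574, -0.0388 and 0.136 between day 30 and day 14. They correlated at -0.0211 and -0.0551 between day 30 and sham, and at -0.127 and -0.105 between day 14 and sham. Not every library correlated best with its own number, but groups this small cannot exclude pairing. No paired analysis was possible for pneumonectomy because its columns carry no replicate number.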
